A study of Mus musculus with 8 samples.

Results

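Antioxidant enzymes and genes switched on by the transcription factor Nrf2 were compared between livers with and without a constitutively active IKK2. The set holds 10 named genes, Nqo1, Gclc, Gclm, Txnrd1, Srxn1, Sod1, Sod2, Cat, Gpx3 and Keap1, each read through the array probe set annotated to its symbol alone. All 10 were measured, each by a single such probe set, among 19938 genes in all. The data are log2 expression values from 8 Affymetrix arrays of whole liver, 1 array per animal. Of the animals, 4 carried a transgene for constitutively active IKK2 under the LAP promoter and 4 were wild type controls. All were 4 weeks old, of mixed C57BL/6 and NMRI stock, and C57BL/6 had been the partner in 4 or more backcrosses. Founder line and sex, not given in the sources used here, were not modelled, and precision is limited by having 4 arrays a group.

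Nrf2, the product of Nfe2l2, is held at low level by Keap1, an adaptor that hands it to a Cul3 ubiquitin ligase for destruction. Oxidants and electrophiles modify Keap1, Nrf2 then accumulates, and with small Maf proteins it binds antioxidant response elements near genes for glutathione synthesis, thioredoxin recycling and quinone reduction. Superoxide dismutases and catalase form a second layer that turns superoxide into peroxide and peroxide into water. IKK2 is the kinase that releases NF-kB from its inhibitors, and Sod2 is a long known NF-kB target in many cell types. Hepatocytes, in which the LAP promoter is active, contain much catalase and glutathione.

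Of the 10 genes only Sod2, the manganese superoxide dismutase of mitochondria, passed the test: it rose 1.53-fold. The other 9 did not pass, although 5 of them had groups without overlap. Nqo1 and Srxn1 read higher, and Gclm, Sod1 and Cat lower, in all 4 transgenic livers than in any control. A gene passed at a Benjamini-Hochberg adjusted p under 0.05 in limma's two-sided test, with the adjustment over all 21789 probe sets that carry a single gene symbol. By this rule 4.67% of all genes were higher and 1.67% lower, so 1 of 10 higher and 0 lower is not far from the background. At an unadjusted p under 0.05, 6 of the 10 passed, 3 higher and 3 lower, as did 33.6% of all genes. Groups without overlap were found for 6 of the 10 members, 3 in each direction, and for 22.4% of all genes, 11.2% in each direction. In either direction 6.34% of all genes passed. The median log2 fold change, transgenic minus control, was 0.16 over the 10 genes and -0.07 over all genes. Over the genes left without the dimmest 30% or 50% of probe sets it was -0.03 or 0.05. By mean level each of the 10 members was brighter than 50.1% or more of all genes.

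**Figure D1:**
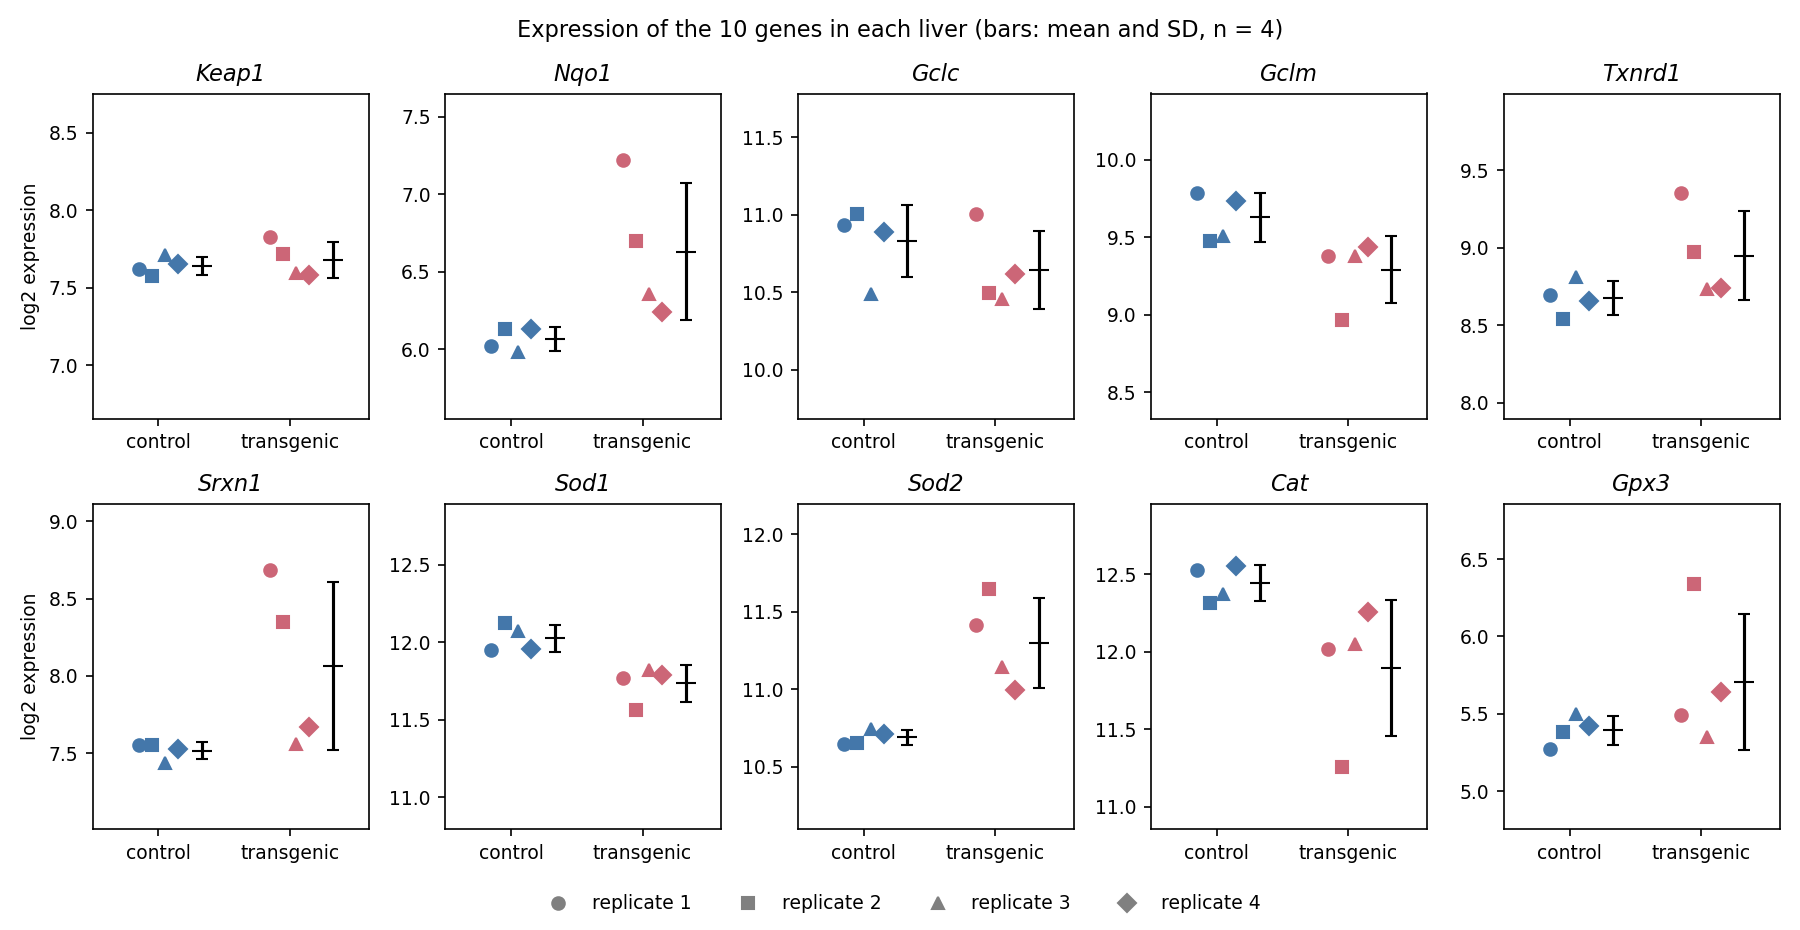
Log2 expression of the 10 genes (vertical axes, each spanning the same range) in 4 control and 4 transgenic livers; symbols mark the replicate, bars the mean and SD (n = 4). Sod2, Nqo1 and Srxn1 lie above every control in all 4 transgenic livers and Gclm, Sod1 and Cat below, and the transgenic points scatter more widely than the controls.

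The arrays and labels were checked first. Array medians ran from 4.88 to 5.08. Ikbkb, the gene of IKK2, read 8.995, 9.09, 8.38 and 8.38 in transgenic livers 1 to 4 against 7.44 to 7.85 in the controls (log2 fold change 1.00, SE 0.18, adjusted p = 0.0185). The sources used here do not say whether its probe set also reads the transgene. Without transgenic replicate 1 or any control replicate Ikbkb did not pass, with adjusted p values up to 0.0691 over all arrays left out in turn. Albumin stood at 13.5 to 13.6 in all 8 livers. The lists of kidney and adipose markers averaged 4.15 to 4.54 and 4.54 to 4.90, under the median of the same array in every liver. The pancreatic acinar list averaged 4.79 to 5.15 in transgenic livers and 5.26 to 5.42 in controls. It was above the array median in transgenic livers 3 and 4 and in every control. All 10 members read above the median of their array in all 8 livers. Over all genes 932 were higher and 333 lower, a balance that became 1066 and 638 after quantile normalization and 618 and 97 with arrays centred on their medians.

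Promoter sequence is shown for Sod2, because it passed, and for the members whose window holds the core letters of an antioxidant response element. RefSeq promoter windows (build GRCm38.p6, 250 bases before to 50 after the start) were found for 9 of the 10 members in 11 entries, with Gclc not among them. Only the 250 bases before the start are printed. Capitals mark matches to the element core TGACNNNGC, its form TGAGNNNGC, the AP-1 motif TGANTCA (which overlaps that form where TCA is followed by GC) and the kappaB motif of NF-kB, each searched on both strands. The form with G was added after the windows had been seen.
Sod2, chr17:13007589-13007838, plus strand: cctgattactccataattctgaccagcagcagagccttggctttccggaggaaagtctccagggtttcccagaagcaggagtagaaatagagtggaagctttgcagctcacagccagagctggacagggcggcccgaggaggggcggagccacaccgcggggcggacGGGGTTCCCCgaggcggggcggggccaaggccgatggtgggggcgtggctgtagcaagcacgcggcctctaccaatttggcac
Srxn1, chr2:152105274-152105523, plus strand: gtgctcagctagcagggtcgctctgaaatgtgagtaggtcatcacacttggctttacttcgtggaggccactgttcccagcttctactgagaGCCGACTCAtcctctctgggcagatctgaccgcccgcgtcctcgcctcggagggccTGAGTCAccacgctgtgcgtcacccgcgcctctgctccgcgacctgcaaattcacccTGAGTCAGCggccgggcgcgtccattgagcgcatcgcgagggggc
Txnrd1, chr10:82858956-82859205, plus strand: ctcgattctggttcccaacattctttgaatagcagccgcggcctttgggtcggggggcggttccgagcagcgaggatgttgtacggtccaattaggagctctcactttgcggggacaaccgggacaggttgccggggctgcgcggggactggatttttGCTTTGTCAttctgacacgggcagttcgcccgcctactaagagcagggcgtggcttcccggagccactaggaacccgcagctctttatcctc
Gclm, chr3:122245307-122245556, plus strand: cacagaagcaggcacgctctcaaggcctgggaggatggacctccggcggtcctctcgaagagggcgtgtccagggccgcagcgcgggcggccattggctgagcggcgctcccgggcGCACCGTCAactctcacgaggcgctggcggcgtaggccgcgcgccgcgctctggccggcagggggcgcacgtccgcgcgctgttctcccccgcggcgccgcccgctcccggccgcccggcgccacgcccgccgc
Sod1, chr16:90220512-90220761, plus strand: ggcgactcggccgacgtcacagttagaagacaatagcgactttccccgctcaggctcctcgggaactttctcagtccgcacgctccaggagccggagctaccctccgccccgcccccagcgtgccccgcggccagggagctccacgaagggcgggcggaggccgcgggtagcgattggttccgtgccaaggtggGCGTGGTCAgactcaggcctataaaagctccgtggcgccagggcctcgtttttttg

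The Sod2 window holds a kappaB motif, GGGGTTCCCC, which fits the motif in either orientation, at positions -83 to -74. This motif was also matched in the windows of Cat (positions -116 to -107) and Gpx3 (1 to 10), and in 8.46% of all 32851 promoter windows. The TGACNNNGC core was matched in 4 members, at -134 to -126 in Gclm, -92 to -84 in 1 of 3 Txnrd1 windows, -56 to -48 in Sod1 and 29 to 37 in Srxn1, and in 12.4% of all windows. Its form TGAGNNNGC was matched in Srxn1 at -158 to -150 and at -45 to -37, the latter overlapping an AP-1 motif, and in 17.6% of all windows. The AP-1 motif was matched in Srxn1 at -102 to -96 and -45 to -39, and in 7.81% of all windows. These are matches of letters within short windows, and binding was not measured.

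Keap1, the brake on Nrf2, overlapped between the groups. It read 7.83, 7.71, 7.59 and 7.58 in transgenic livers 1 to 4 and 7.62, 7.58, 7.71 and 7.65 in controls 1 to 4. Livers 1 and 2 stood at or above the top of the control range and livers 3 and 4 near its bottom. The difference between the group means was 0.04 on the log2 scale (SE 0.085, 95% interval -0.15 to 0.23, adjusted p = 0.751), and its sign was negative after quantile normalization (-0.11) and without transgenic replicate 1 (-0.01).

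Nrf2's own transcript was among 10 further genes for Nrf2 and its control, a list that also holds the ligase subunits Cul3 and Rbx1, the repressor Bach1 and the small Maf partners. None of the 10 passed, 8 had positive values and the median was 0.21. Of all 19938 genes 7654 had positive values. An unadjusted p under 0.05 was found for 5 of 10, and for 33.6% of all genes. Nfe2l2, with the smallest p of the list, read 9.36, 9.99, 8.66 and 8.95 in the transgenic livers and 8.54, 8.17, 8.07 and 8.39 in the controls. Every transgenic value was above every control value, the second liver the highest. On average Nfe2l2 stood 1.93-fold higher (0.95 in log2, SE 0.25), with an adjusted p = 0.0538 just outside the threshold. It passed in 6 of 18 other settings, among them quantile normalization (adjusted p = 0.0494) and the removal of the dimmest 30% of probe sets (0.0431) or of transgenic replicates 2, 3 or 4 (0.0400, 0.0254 and 0.0393). It did not pass without transgenic replicate 1 (adjusted p = 0.142) or without any 1 control replicate (0.0889 to 0.132). Against a 1.2-fold change the adjusted p was 0.268.

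Nqo1, which reduces quinones with both electrons at once and is a standard readout of Nrf2, was higher in all 4 transgenic livers without passing. It read 7.22, 6.70, 6.36 and 6.24 in transgenic livers 1 to 4 and 6.02, 6.13, 5.98 and 6.13 in the controls. The lowest transgenic value lay close above the highest control, and the first liver far above. The means were 6.63 ± 0.44 and 6.06 ± 0.08 (SD, n = 4 each), which is 0.56 apart in log2 (SE 0.19, adjusted p = 0.0842). Without transgenic replicate 4 it passed (0.70, adjusted p = 0.0398), and without replicate 1 the log2 fold change was 0.37 (adjusted p = 0.155).

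Other genes of quinone, haem and NADPH metabolism, iron storage, metal binding and export surround Nqo1 in this pathway. Among these 25 genes 3 rose and 1 fell, while 21 missed the threshold, with a median of 0.25 and 18 positive values. Over all genes 7654 of 19938 values were positive. Hmox1, the inducible haem oxygenase, read 9.05, 9.49, 8.42 and 8.04 in the transgenic livers and 7.45, 7.54, 7.17 and 7.41 in the controls. It thus rose in every transgenic liver, 2.56-fold on average (log2 fold change 1.36, SE 0.27, adjusted p = 0.0258). Abcc4, an exporter of organic anions across the basolateral membrane, rose by 0.95 in log2 (SE 0.19, adjusted p = 0.0294). Fth1, the heavy chain of ferritin, which stores iron, rose by 0.41 in log2 (SE 0.09, adjusted p = 0.0356). Me1, the malic enzyme that supplies NADPH for glutathione reduction and for fat synthesis, fell by 1.13 in log2 (SE 0.26, adjusted p = 0.0393). Its other probe set gave a log2 fold change of -1.11 (adjusted p = 0.0370). Hmox1, Abcc4 and Fth1 are established Nrf2 targets, and so is Me1.

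Srxn1, the sulfiredoxin that repairs over-oxidised peroxiredoxins, differed in size between transgenic livers more than any other member. It read 8.68 and 8.35 in transgenic livers 1 and 2, but 7.56 and 7.67 in livers 3 and 4, against 7.55, 7.56, 7.44 and 7.53 in the controls. Livers 1 and 2 were thus well above the controls while liver 3 was barely above the highest of them. The SD was 0.54 in the transgenic group and 0.05 in the controls, a ratio of 9.88, and the log2 fold change was 0.55 (SE 0.22, adjusted p = 0.126). It did not pass in any of the 18 other settings, with adjusted p values from 0.0564 to 0.864.

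Txnrd1, the cytosolic selenoenzyme that recycles thioredoxin, followed the same order of livers at a smaller size. It read 9.35, 8.97, 8.73 and 8.74 in transgenic livers 1 to 4 and 8.69, 8.54, 8.81 and 8.66 in the controls. Livers 1 and 2 were above all controls, and livers 3 and 4 lay among them. Its group means differed by 0.28 in log2 (SE 0.14, 95% interval -0.04 to 0.59, adjusted p = 0.189).

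Around these enzymes the thioredoxin system moved in both directions. Of 14 further genes 2 rose, 2 fell and 10 did not pass, with a median of -0.02, so the list did not shift one way. Prdx3, the peroxiredoxin of mitochondria, rose by 0.49 in log2 (SE 0.11, adjusted p = 0.0390), from 10.62 to 10.74 in the controls to 10.95 to 11.40. Msrb3, a methionine sulfoxide reductase, rose by 0.39 in log2 (SE 0.09, adjusted p = 0.0370). Msrb1, a selenoenzyme with the same activity, fell by 0.50 in log2 (SE 0.11, adjusted p = 0.0354). Txnrd2, the mitochondrial counterpart of Txnrd1, fell by 0.35 in log2 (SE 0.09, adjusted p = 0.0463). It read 7.24 to 7.37 in the transgenic livers and 7.53 to 7.83 in the controls.

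**Figure D2:**
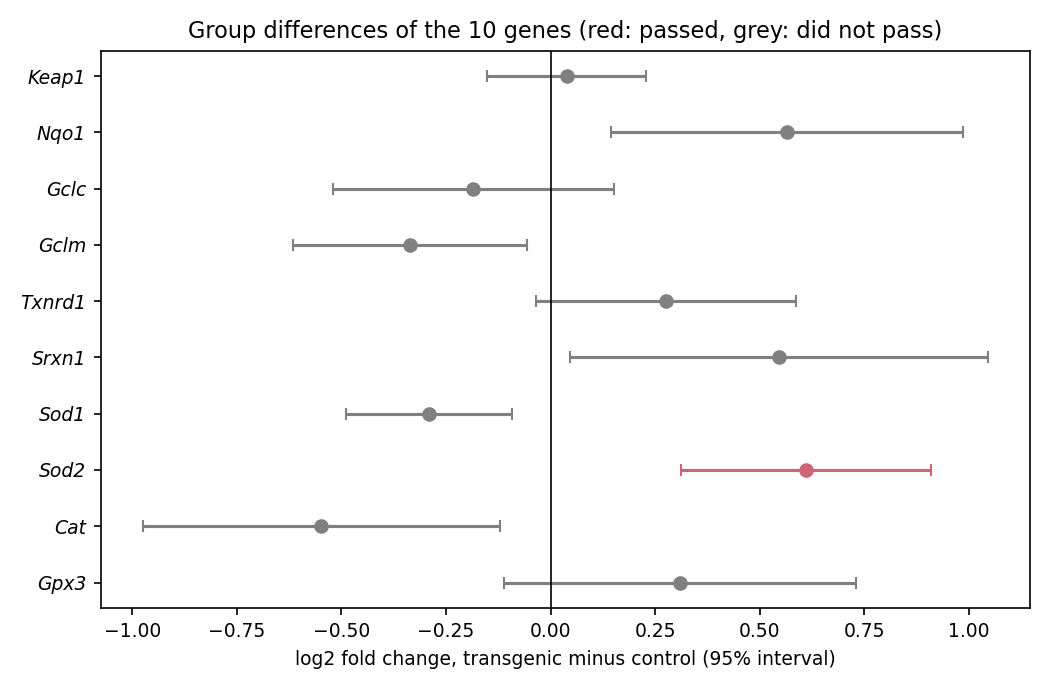
Log2 fold change of the 10 genes (horizontal axis, transgenic minus control) with limma's unadjusted 95% interval. Sod2 (red) passed at 0.61; the intervals of Nqo1, Srxn1, Gclm, Sod1 and Cat also leave out 0 but their adjusted p values lie between 0.0717 and 0.126.

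The subunits of glutamate-cysteine ligase, the enzyme of the rate-limiting step of glutathione synthesis, did not read higher as Nqo1 and Srxn1 did. Gclm, the modifier subunit, read 9.38, 8.97, 9.38 and 9.44 in transgenic livers 1 to 4 and 9.79, 9.48, 9.51 and 9.74 in the controls. All 4 transgenic values lay below every control, liver 4 only just and liver 2 by the most. At -0.34 in log2 Gclm did not pass (SE 0.13, adjusted p = 0.104).

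Gclc, the catalytic subunit, read 11.01, 10.50, 10.46 and 10.62 in the transgenic livers and 10.94, 11.01, 10.49 and 10.89 in the controls. The groups overlapped widely, and control 3 read as low as the lower transgenic livers. Its log2 fold change of -0.18 did not pass (SE 0.15, 95% interval -0.52 to 0.15, adjusted p = 0.387). Of 11 further glutathione genes 1 rose, 0 fell and 10 did not pass, with a median of -0.09. The gene that rose was Gss, glutathione synthetase, which adds the last amino acid, by 0.44 in log2 (SE 0.10, adjusted p = 0.0403). Gss stood at 9.08 to 9.49 in the transgenic livers and at 8.70 to 8.83 in the controls.

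**Figure D3:**
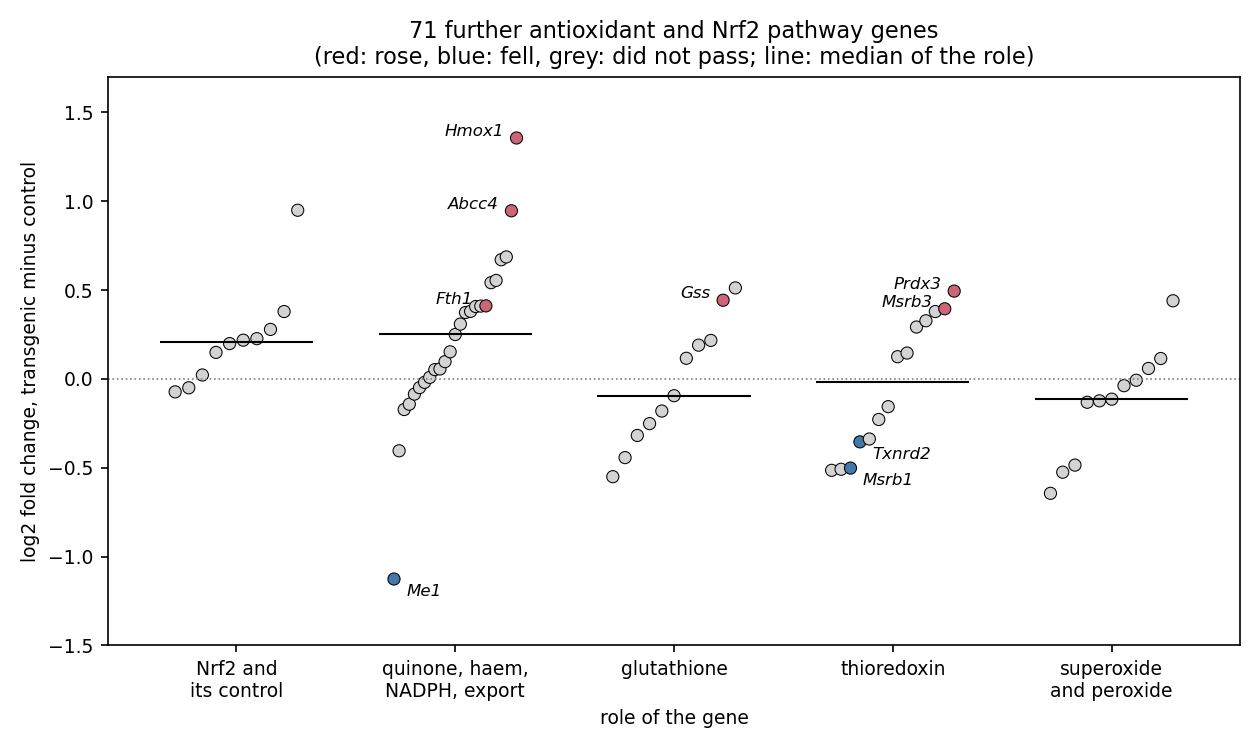
Log2 fold change (vertical axis, transgenic minus control) of 71 further pathway genes, grouped by role; red points rose, blue fell and grey did not pass, and lines mark each role's median. Hmox1 stands highest at 1.36 and Me1 lowest at -1.13.

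Sod2 rose, whereas Sod1 read lower without passing and Sod3, the secreted form and no member of the set, overlapped between the groups (log2 fold change -0.04). Sod2, the mitochondrial enzyme, read 11.41, 11.64, 11.14 and 10.99 in transgenic livers 1 to 4 and 10.65, 10.65, 10.74 and 10.71 in the controls. Every transgenic value was above every control, livers 1 and 2 the most. The means were 11.3 ± 0.29 and 10.7 ± 0.05 (SD, n = 4 each), so that Sod2 rose by 0.61 in log2 (SE 0.13, 95% interval 0.31 to 0.91, adjusted p = 0.0356). The direction held in all 18 other settings. Leaving out transgenic replicate 1 ended the call (log2 fold change 0.57, adjusted p = 0.111), as did leaving out control replicate 1, 2, 3 or 4 (adjusted p = 0.0890, 0.0997, 0.0874 and 0.0753). It was also lost with the adjustment over all deposited probe sets (0.0616) and against a 1.2-fold change (0.297).

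Sod1, the cytosolic copper and zinc enzyme, read 11.77, 11.56, 11.82 and 11.79 in the transgenic livers and 11.95, 12.13, 12.07 and 11.95 in the controls. All 4 transgenic values were lower than any control, within a narrow range. At -0.29 in log2 it did not pass (SE 0.09, adjusted p = 0.0717), and it passed as lower only after quantile normalization (-0.33, adjusted p = 0.0468). Its copper chaperone Ccs, the gene with the smallest p among 11 further superoxide and peroxide genes, read 8.26, 7.68, 8.41 and 8.43 against 8.66 to 8.80 in the controls (-0.53, SE 0.16, adjusted p = 0.0677). Of these 11, 0 passed limma's adjusted threshold, and their median was -0.11. An unadjusted p under 0.05 was found for 3 of them, and for 33.6% of all genes.

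Cat, the peroxisomal catalase, read 12.02, 11.26, 12.05 and 12.26 in transgenic livers 1 to 4 and 12.53, 12.31, 12.37 and 12.55 in the controls. Transgenic liver 4 lay just below the lowest control and liver 2 far below. The mean difference was -0.55 in log2 (68.4% of the control level, SE 0.19, adjusted p = 0.0923). It passed without transgenic replicate 4 (-0.67, adjusted p = 0.0488), and without replicate 2 the log2 fold change was -0.34.

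Gpx3, the glutathione peroxidase secreted into plasma, read 5.49, 6.34, 5.35 and 5.64 in the transgenic livers and 5.28, 5.38, 5.50 and 5.42 in the controls. Transgenic liver 2 stood alone at the top, and livers 1 and 3 lay within the control range. On average the difference was 0.31 in log2 (SE 0.19, 95% interval -0.11 to 0.73, adjusted p = 0.260), and 0.10 without replicate 2.

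The transgenic livers differed among themselves in these genes. The SD was larger in the transgenic than in the control group for 10 of 10 members, with a median SD of 0.29 in transgenic and 0.09 in control livers. That was so for 67.6% of the 71 further pathway genes and 59.4% of all genes. Among the marker lists it held for 12 of 12 macrophage, 9 of 9 monocyte, 5 of 5 kidney and 10 of 11 neutrophil genes. In the erythroid, hepatocyte, adipose and stellate lists it held for 6 of 7, 8 of 11, 4 of 6 and 6 of 10. It held for 2 of 4 pancreatic acinar, 3 of 6 bile duct and 3 of 10 endothelial genes. Liver 1 was farthest from the control mean for Nqo1, Txnrd1, Srxn1 and Keap1, and liver 2 for Gclm, Sod1, Sod2, Cat and Gpx3. Livers 1 and 2 also had the 2 highest transgenic readings of Ikbkb, at 1.28 and 1.38 above the control mean, with livers 3 and 4 at 0.67 and 0.66. For 8 of the 10 members, Gclc and Gpx3 apart, this pair of livers lay farthest in the direction of the group difference. That was so for 6 of the 9 further pathway genes that passed, Gss, Msrb3 and Me1 apart, for 82.1% of the 1265 genes that passed anywhere on the array, and for 55.7% of every gene measured, so it is not a feature of these genes alone. The count was made after the values had been seen, and a relation to Ikbkb was not tested.

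**Figure D4:**
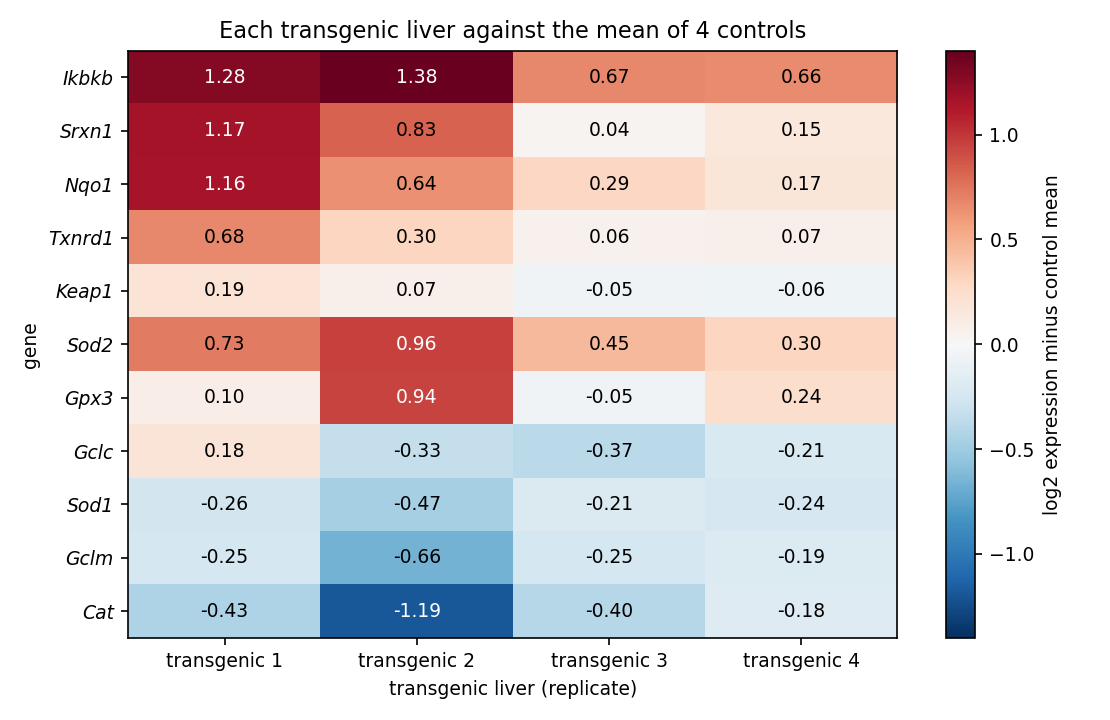
Each cell gives the log2 expression in a transgenic liver minus the mean of the 4 controls, for Ikbkb and the 10 genes (rows) in transgenic livers 1 to 4 (columns); red is higher and blue lower. Among the 10 genes the largest differences are 1.17 for Srxn1 in liver 1 and -1.19 for Cat in liver 2; Ikbkb stands at 1.28 and 1.38 in these livers.

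Marker transcripts of some other cells also differed between the groups. Of 12 Kupffer cell and macrophage markers 10 rose and 0 fell, Mpeg1 the most by 2.04; the log2 of their summed level was 12.73 to 14.02 in transgenic and 11.58 to 11.96 in control livers. Of 9 monocyte markers 7 rose, Ccr2 the most by 3.72, with summed levels of 10.91 to 12.28 and 8.88 to 9.27. Both lists were highest in transgenic liver 2, as were Sod2 and Gpx3, and Gclm, Sod1 and Cat were lowest there. Nqo1, Gclc, Txnrd1, Srxn1 and Keap1 were instead highest in transgenic liver 1. Macrophages express Sod2 and Hmox1 as well. Hepatocyte markers gave 0 calls among 11, a median of -0.11 and summed levels of 16.04 to 16.28 against 16.22 to 16.30, with 1 of 11 at an unadjusted p under 0.05. Erythroid markers, of cells that also contain catalase, gave mixed readings. Of 7, 2 passed as lower (Car1, which fell by 1.62, and Gata1) and 4 had positive values, with a median of 0.10. The mean log2 level of the list was lower in all 4 transgenic livers (6.08 to 6.27) than in any control (6.30 to 6.51). Its summed levels of 9.76 to 10.49 and 9.79 to 10.21 overlapped. Among the neutrophil, endothelial, bile duct, kidney and adipose lists 0 markers passed limma's adjusted threshold. In these lists 2 of 11, 4 of 10, 1 of 6, 2 of 5 and 1 of 6 had an unadjusted p under 0.05. Over all genes that share was 33.6%. In the stellate list 2 of 10 rose, Col1a1 the most by 0.71. In the pancreatic acinar list, with 4 genes measured, Cela1 fell by 0.43. Of the 4, 0 had positive values and 3 an unadjusted p under 0.05, with a median of -0.43. The acinar mean log2 level was lower in all 4 transgenic livers (4.79 to 5.15) than in any control (5.26 to 5.42). So was the kidney mean, at 4.154 to 4.425 against 4.426 to 4.542. The part of these cells in the differences of the 10 genes was not tested. In whole liver, fewer cells of a type and less RNA per cell cannot be told apart.

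**Figure D5:**
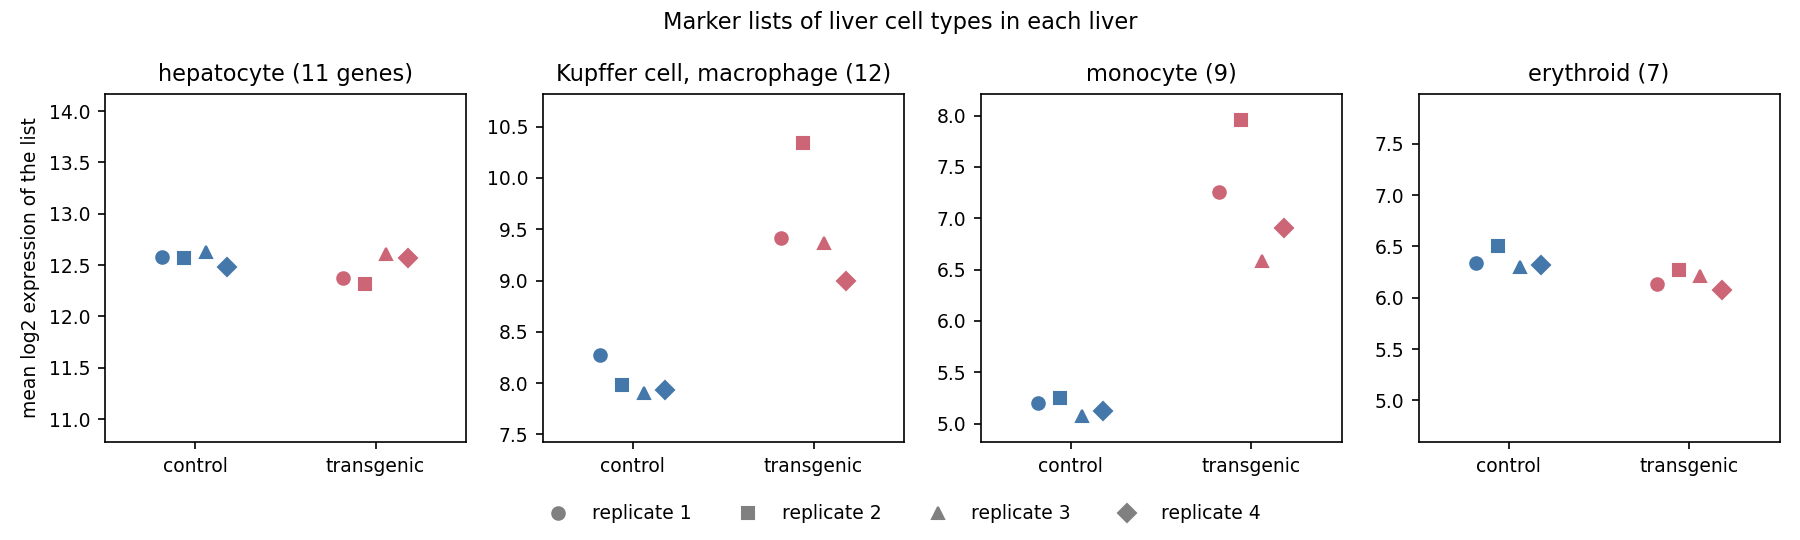
Mean log2 expression of 4 marker lists (vertical axes, each spanning the same range) in each control and transgenic liver; symbols mark the replicate. Macrophage and monocyte lists are higher in all 4 transgenic livers, most in liver 2, and the erythroid list is lower in all 4. The hepatocyte list overlaps between the groups, with transgenic livers 1 and 2 (12.37 and 12.32) below the control range of 12.48 to 12.62.

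In all, 6 of the 71 further pathway genes rose and 3 fell, 62 not passing, with a median of 0.10. The shares of 6 and 3 in 71 can be read against 4.67% and 1.67% of all genes. All 9 calls were lost without transgenic replicate 1 and without each of the 4 control replicates, where 0 of the 71 passed. Over all genes 192 to 268 were higher and 3 to 35 lower in these settings, against 932 and 333 with all arrays. Without transgenic replicate 4, 11 of the 71 rose and 8 fell, and over all genes 1636 were higher and 944 lower. Ggt1, Prdx5, Prdx6 and G6pdx were on the list but have no probe set of a single symbol, so they were not analysed here.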

How the data were processed

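Gene expression was measured in 4 transgenic and 4 control mouse livers. The authors deposited log2 expression values, and the submitters' processing notes name Affymetrix Expression Console (version and normalization not given in the sources used here). Base 2 was read from the values, whose maximum is 14.1. No further normalization was applied, since array medians differed by at most 0.20 and upper quartiles by 0.30, under a limit of 0.5.

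Of 35556 probe sets, 21789 had 1 gene symbol, 1621 several and 12146 none. Entrez identifiers of 21698 matched RefSeq (GRCm38.p6), changing 0 symbols. Limma 3.58.1 in R 4.3.3 (data.table at version 1.17.8 for tables) was used to fit the group as the only term to the 21789; p-values were two-sided with Benjamini-Hochberg adjustment over all of them and a threshold of 0.05. A gene was read through its brightest probe set. SE and 95% intervals are limma's. Arrays of a group are biological replicates per the labels.

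The members and lists were chosen with earlier results of these data known. Named were the 10 members, Ikbkb and up to 3 called genes per direction and role (or the smallest p). The called marker with the largest change per list was named too. Gata1 and albumin were named after their values were seen, and Sod3 was also named outside this rule. On simulated data for this comparison over 19938 genes, 50 of 50 changes of 2 on the log2 scale, 50 of 50 of -2, 42 of 50 of 1 and 45 of 50 of -1 were recovered, with 12 false calls. Smaller changes, such as those of most members, were not simulated. Alternatives were 2 scalings, 2 filters on dim probe sets, all probe sets, averaged probe sets, trend and robust moderation, array weights, a replicate block, limma's treat and each array left out.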

Additional observations from a re-analysis of the deposited data

Results flagged for a closer look

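In 44 groups of 4 arrays, 2 for each of 22 named genes, a single array stood far from the other 3 in 2 cases by Dixon's criterion, which chance alone meets in about 1 of 20 groups. Gclm read 8.97 in transgenic replicate 2, with the other transgenic livers at 9.38 to 9.44. Prdx3 read 10.74 in control replicate 3, with the other controls at 10.62 to 10.63.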

How the results depend on the processing

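The 10 members kept the sign of their log2 fold change in every setting in which they were tested, apart from Keap1. Sod2 passed in 10 of 18 other settings (log2 fold change 0.49 to 0.71, adjusted p from 0.0124 to 0.297). Members called higher numbered 0 with all deposited probe sets, with the replicate block and against a 1.2-fold change, and from 0 to 2 when single arrays were left out. Members called lower numbered 1 after quantile normalization, and 0 to 1 with arrays left out. Of the 71 further genes, 1 rose and 0 fell with all deposited probe sets, 2 rose and 1 fell with the replicate block, and 0 rose and 0 fell against a 1.2-fold change; 0 fell with arrays centred on their medians. With single arrays left out, 0 to 11 rose and 0 to 8 fell. Calls over all genes changed as well. They numbered 425 higher and 54 lower with all deposited probe sets, and 670 and 174 with the replicate block. Against a 1.2-fold change they were 271 and 8, and with single arrays left out 192 to 1636 and 3 to 944. The causes were not tested. The labels give same-numbered animals a number in common and state no pairing. The deviations of these animals correlated at 0.28, -0.03, 0.27 and -0.13. Transgenic arrays 1 and 3 correlated best with the control of their own number, and arrays 2 and 4 did not. Sod2 had an adjusted p = 0.0577 in limma with the replicate block. Without the dimmest 50% of probe sets Gpx3 was not among the genes tested. No pseudocount was tried, since the values are on a log scale. Signal could not be set against background.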
